A study of Homo sapiens with 71 samples.

Results

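The ABC transporter genes are the genes of subfamilies A to G of the ATP-binding cassette superfamily. They were taken as every entry of the deposited table whose symbol is ABC, a letter from A to G and a number with nothing after it. The rule found 46 of the table's 31012 entries, 40 of them with counts. A filter on low counts left 27 of these among 6947 tested features. The cells were HepG2, a human hepatoma line. They were kept for 48 hours in medium made up to 75% with filtered water, either collected at 1 of 16 sites on Great Lakes tributaries or purified in the laboratory (the controls). Sites are named by the codes of the labels. There were 4 dishes per site (3 for the site MIWI) and 8 control libraries. All groups shared the same culture medium with serum, antibiotics and normocin, and a 72-hour preculture. RNA was assayed by TempO-Seq, in which pairs of probes that meet on a transcript are joined and sequenced, so a gene's level here depends on its probes and levels are not ranked between genes.

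ABC proteins bind and hydrolyse ATP, and most of them use this to move a substrate across a membrane. In the hepatocyte the pumps of the canalicular membrane secrete bile salts, phospholipid, sterols and conjugated drugs into bile, those of the basolateral membrane return conjugates to blood, and others serve mitochondria, peroxisomes and lysosomes. Subfamilies E and F have no membrane spans and act at the ribosome. The dishes came from combined flasks of 1 cell line in a single culture batch, so the p-values measure the spread between dishes. In whole-dish RNA, fewer cells of a kind and less RNA per cell cannot be told apart. A line in culture has no bile flow, and HepG2 gave few counts for the canalicular pumps ABCB4 and ABCB11.

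Leaving VROH 2 aside, site libraries had totals of 2.91 to 9.89 M and controls of 8.18 to 14.5 M, where M is 1e+06 counts. Controls were thus sequenced more deeply, and the part of depth in the comparisons with controls was not tested. The library VROH 2 held about 8840 counts, and the libraries CRMI 1 and SRMI 3 also stood apart from their sites, so the ABC results that they touch most are given with and without all 3. Lowest and highest site means leave VROH 2 out. ABC genes took 0.150 to 0.187% of the counts in controls and 0.141 to 0.206% at the sites. Of 11 hepatocyte markers 0 differed between sites by edgeR's F test, described below, where 2 had an unadjusted p under 0.05, and 5 differed without the 3 libraries. Among markers of other cell types, PTPRC and KDR were at 0 in every library, and whether the assay held probes for them is not stated.

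The plainest result is that water from different sites gave different levels of some ABC genes, and that the family did so no more often than other genes. In edgeR's quasi-likelihood F test between the 16 sites, 8 of 27 ABC genes had a Benjamini-Hochberg adjusted p below 0.05, or 29.6%, against 29.8% of all tested features. They were ABCG2, ABCD4, ABCC6, ABCA2, ABCF1, ABCG5, ABCD3 and ABCB10. The median F was 1.52 over the ABC genes and 1.501 over all features. Without the 3 libraries that stood apart, 14 of 27 ABC genes passed, or 51.9%, against 49.8% of features, and all 8 were among them. ABCB1, ABCA5, ABCC2, ABCE1, ABCA7 and ABCC1 were added. Both shares lie near the background.

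**Figure D1:**
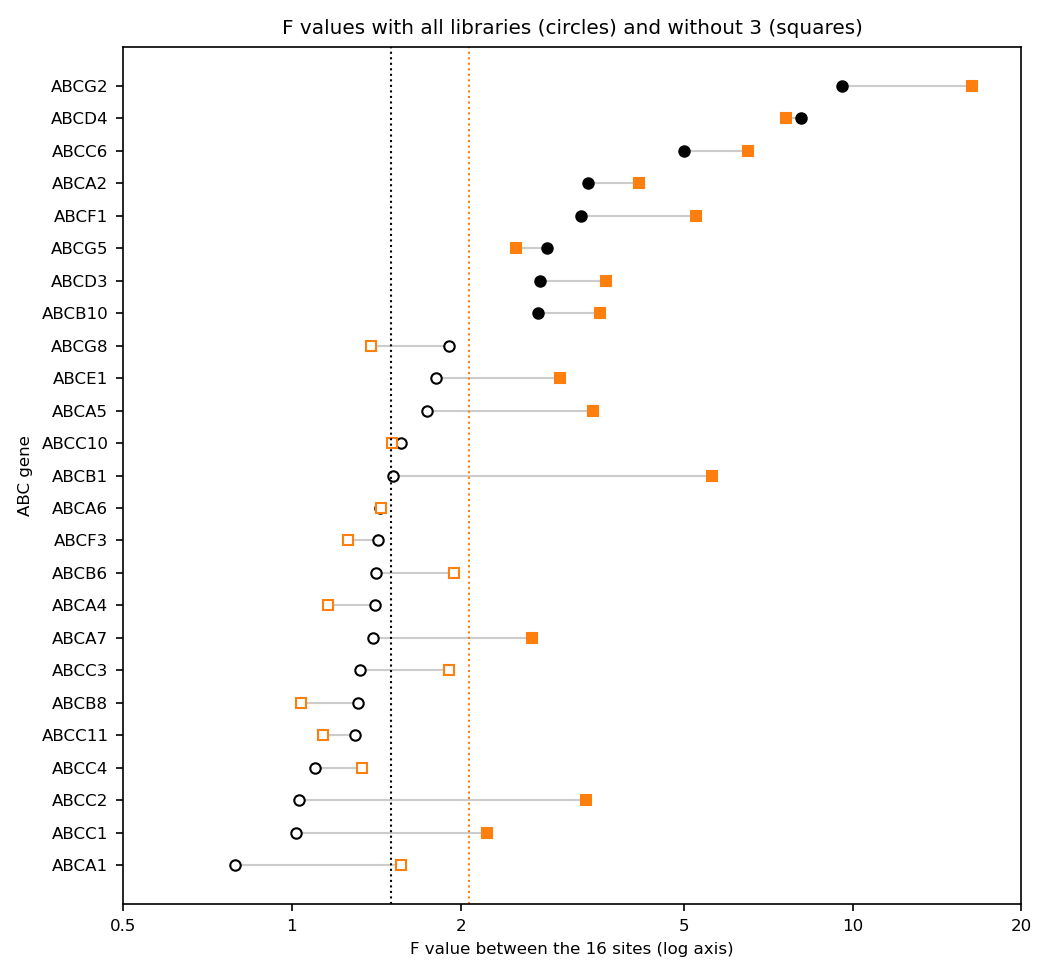
The F values of 25 of the 27 tested ABC genes between the 16 sites, on a log axis, with all libraries (circles) and without VROH 2, CRMI 1 and SRMI 3 (squares). Filled symbols passed the test, and dotted lines mark the median F of all features in each fit. ABCG2 lies highest in both, and ABCB1 moves from 1.52 to 5.61.

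Single sites against the controls gave few calls. Of 432 pairs of an ABC gene and a site, 5 were called, or 1.16%, against 0.883% of feature-site pairs. Of these, 1 was higher at the site (0.436% of all feature-site pairs were called higher) and 4 were lower (0.447%). They belong to 2 genes, ABCG2 and ABCD4, or 7.41% of the ABC genes, while 10.3% of features were called at 1 or more sites. In these pairs, except for ABCG2 at CRMI, no site library overlapped the controls. The pairs were called on the same values, so this adds no support to the calls. Pairs that were not called also lacked overlap, among them ABCF1 at CRMI and at CROH. Without the 3 libraries 22 of 432 pairs were called, or 5.09%, against 4.09%, with 11 higher (1.89% of all pairs) and 11 lower (2.2%). The 16 comparisons share 1 set of controls and are not independent of each other. At the mean of the 16 sites 0 ABC genes were called by edgeR and 0 by DESeq2, and 1, ABCD4, had an unadjusted p under 0.05. Of all features, 4 were called there, or 0.0576%, and 162 had an unadjusted p under 0.05. The median log2 change at the mean of sites was −0.01 over the ABC genes and −0.02 over all features.

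**Figure D2:**
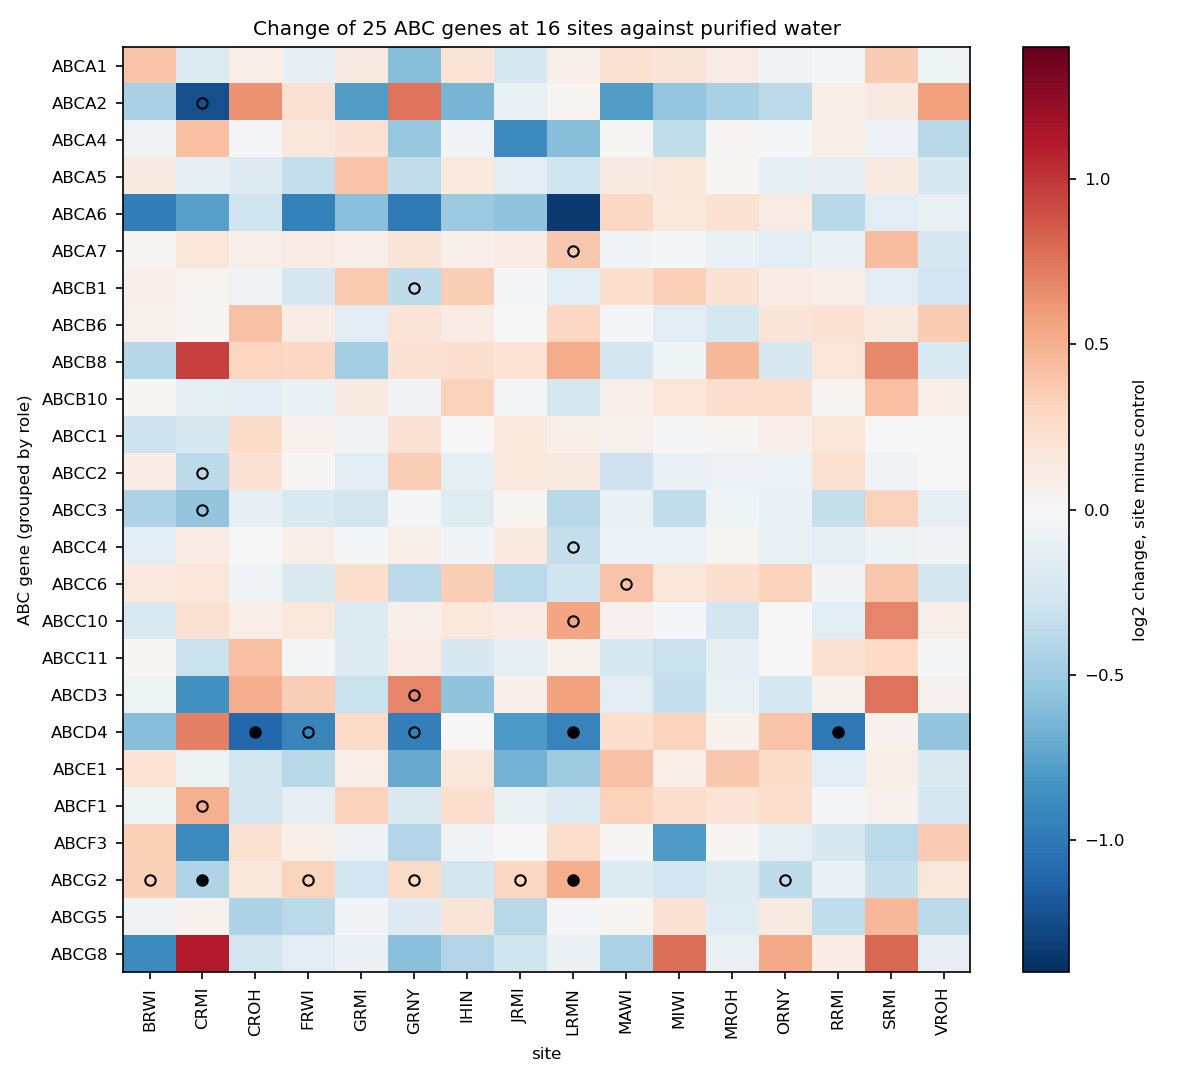
Log2 change of 25 of the 27 tested ABC genes (vertical) at each site (horizontal) against the controls, from the fit of all libraries. Filled dots mark the 5 called pairs and open dots those called only without VROH 2, CRMI 1 and SRMI 3. ABCD4 and ABCG2 carry most of the dots.

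The stretches upstream of 3 transcription starts are shown because ABCG2 and ABCD4 hold all the single-site calls, and because the RefSeq starts used for ABCG5 and ABCG8 lie back to back and share the interval between them (the GENCODE spans given below are longer and overlap). They come from the RefSeq table on GRCh38.p14, in which 30 of the 40 genes with counts had an entry, and hold no exon of the GENCODE release 29 basic set. The first is chr4:88159291-88159540 on the minus strand, 1 of 5 ABCG2 windows. The second is chr14:74303057-74303184 on the minus strand, upstream of ABCD4. The last is chr2:43838840-43838963, printed on the plus strand, with ABCG5 leaving it to the left and ABCG8 to the right. Capitals mark matches on either strand to GCGTG (the core bound by the aryl hydrocarbon receptor), GGGCGG (a GC box), AGGTCA (a hexamer bound by nuclear receptors) or TGACNNNGC (the core of the antioxidant response element); none of these motifs holds another.
ABCG2: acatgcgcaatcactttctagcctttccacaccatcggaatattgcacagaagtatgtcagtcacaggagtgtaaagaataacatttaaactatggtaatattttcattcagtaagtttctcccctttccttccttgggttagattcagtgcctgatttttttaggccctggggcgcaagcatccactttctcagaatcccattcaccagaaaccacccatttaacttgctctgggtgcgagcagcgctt
ABCD4: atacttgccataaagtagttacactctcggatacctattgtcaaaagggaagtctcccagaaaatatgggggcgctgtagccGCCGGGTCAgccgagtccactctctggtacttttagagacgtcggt
ABCG5 and ABCG8: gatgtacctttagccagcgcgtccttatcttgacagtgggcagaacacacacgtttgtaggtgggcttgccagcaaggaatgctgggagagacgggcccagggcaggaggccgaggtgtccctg
The ABCD4 stretch held 1 match, to the antioxidant core, which 4.82% of stretches of that length held. The other 2 stretches held none of the 4 motifs. Of all windows of 250 bases, 32.2% held GCGTG, 42.6% GGGCGG, 12.1% AGGTCA and 10.9% TGACNNNGC. Of the ABCG2 windows not printed, 1 held no match, and the other 3, which overlap exons and in part each other, held matches to GCGTG, with GGGCGG in 2 of them and AGGTCA in 1. These are matches of letters and not measured binding.

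ABCG2, the breast cancer resistance protein, exports urate and many drugs and lies at chr4:88090264-88231322 on the minus strand. Its 8 control libraries ran from 52.1 to 65.6 CPM (counts per 1e+06 counts) with a median of 57.6. The LRMN libraries stood at 81.2, 90.1, 80.6 and 78.1 CPM, all above every control. ABCG2 was higher at LRMN by 0.50 on the log2 scale (SE 0.12, edgeR adjusted p = 0.00468), where 2.2% of features were called higher. This call held when any single library was left out. The CRMI libraries stood at 25.1, 57.0, 52.0 and 40.3 CPM, so 3 lay below every control (CRMI 3 by less than 1 CPM) and 1 inside their range. ABCG2 was lower there by −0.43 (SE 0.12, edgeR adjusted p = 0.0352), where 1.73% of features were called lower. Without CRMI 1 the change was −0.21 (edgeR adjusted p = 0.306), without all 3 libraries −0.23 (adjusted p = 0.136), and the call was also lost without CRMI 4, CTRL 6 or CTRL 7.

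Over the 16 sites ABCG2 had the highest F among the ABC genes, 9.57 (adjusted p = 6.31e-09), and 16.3 (adjusted p = 3.67e-13) without the 3 libraries. Without them its site means ran from 45.6 ± 2.43 CPM (SD, n = 4) at ORNY to 82.5 ± 5.28 CPM (SD, n = 4) at LRMN, with the controls at 58.2 ± 4.36 CPM (SD, n = 8). In rising order the means below the controls were at ORNY, SRMI, MIWI, GRMI, IHIN, CRMI, MAWI, MROH and RRMI, from 45.6 to 54.2 CPM, and neighbours in that order did not differ beyond their SD. Those above were at CROH, VROH, GRNY, JRMI, FRWI, BRWI and LRMN, from 64.9 to 82.5 CPM. Each of these neighbours up to BRWI, at 73.3 ± 7.25 CPM, also lay within the SD of the next.

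In the fit without the 3 libraries ABCG2 was higher at 5 sites and lower at 1. The log2 changes were 0.33 at BRWI, 0.32 at FRWI, 0.27 at GRNY, 0.30 at JRMI and 0.51 at LRMN, and −0.34 at ORNY (edgeR adjusted p between 1.3e-05 and 0.0340). All 4 JRMI libraries lay above every control, and all 4 ORNY libraries, at 46.4, 42.9, 44.4 and 48.5 CPM, lay below. At BRWI, FRWI and GRNY 3 of 4 libraries were above every control. The share of all features called in that fit was 1.14% at BRWI, 2.18% at FRWI, 9.17% at GRNY, 2.91% at JRMI, 17.5% at LRMN and 4.09% at ORNY.

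Lysozyme (LYZ), on the list of immune cell markers, moved in the same 2 comparisons as ABCG2. It was lower at CRMI by −1.08 and higher at LRMN by 1.01 on the log2 scale (edgeR adjusted p = 0.0248 and 0.0157), and by −0.97 and 1.017 without the 3 libraries (adjusted p = 0.000712 and 1.5e-06). In that fit LYZ was also called higher at CROH, FRWI, GRNY, JRMI and RRMI and lower at IHIN, MAWI and ORNY. ABCG2 was not called there at CROH, RRMI, IHIN or MAWI. CD68, another immune marker, went the other way at LRMN, by −0.56 in that fit (edgeR adjusted p = 0.0191). Of 5 tested immune markers LYZ alone was called between sites with all libraries and 3 were without those 3. PTPRC, which marks leukocytes, was at 0. The summed level of the 10 immune markers ran from 1695 to 2288 CPM in controls and from 637 to 4014 CPM at the sites other than VROH 2. Of the 2 tested endothelial markers CDH5 was lower at LRMN by −2.01 (edgeR adjusted p = 0.0235), and by −2.00 without the 3. The part of these genes in the ABCG2 result was not tested.

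ABCD4, a transporter of the lysosome that works as a dimer and serves the release of vitamin B12, lies at chr14:74285423-74303056 on the minus strand. Its control libraries ran from 3.57 to 5.75 CPM with a median of 4.28. At CROH the libraries stood at 2.81, 1.65, 2.12 and 1.73 CPM, all below every control. ABCD4 was lower there by −1.10 on the log2 scale (SE 0.28, edgeR adjusted p = 0.0191), where 1.31% of features were called lower. At LRMN they stood at 2.19, 1.86, 2.45 and 2.82 CPM, again below every control. The change was −0.93 (SE 0.27, edgeR adjusted p = 0.0295), where 2.81% of features were called lower. At RRMI they stood at 1.98, 3.40, 2.50 and 0.811 CPM, also without overlap. The change was −0.996 (SE 0.26, edgeR adjusted p = 0.0408), where 0.331% of features were called lower.

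These ABCD4 calls rest on few counts, 47 in all at CROH, 53 at LRMN and 67 at RRMI, against 357 in the controls. Leaving out CROH 2, CROH 3 or CROH 4 ended the CROH call. The LRMN call was lost without CTRL 8, LRMN 1, LRMN 2 or LRMN 3. At RRMI it was lost without any of 5 controls (CTRL 1, 2, 3, 7 or 8) or without RRMI 1, RRMI 3 or RRMI 4. In these leave-one-out fits the log2 change stayed below 0, between −1.28 and −0.77 over the 3 sites.

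Between sites ABCD4 had an F of 8.08 (adjusted p = 8.11e-08), and 7.62 without the 3 libraries. The fit without them added calls at FRWI (−0.92) and GRNY (−0.94) to those at CROH (−1.11), LRMN (−0.92) and RRMI (−0.999). At CROH 10.3% and at RRMI 2.86% of features were called in that fit. In rising order the lowest site means were at CROH, RRMI, GRNY, FRWI, LRMN, JRMI, BRWI and VROH, from 2.08 to 3.05 CPM, and these neighbours lay within their SD of each other. The others ran from 4.50 ± 0.283 CPM (SD, n = 4) at IHIN to 5.98 ± 2.49 CPM (SD, n = 3) at CRMI, with the controls at 4.49 ± 0.737 CPM (SD, n = 8). The plot of both genes by library shows that the sites with the lowest ABCD4 means and those with the highest ABCG2 means overlap in all but RRMI, where both means were below the controls. That pairing of the 2 genes was chosen after their values were seen.

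**Figure D3:**
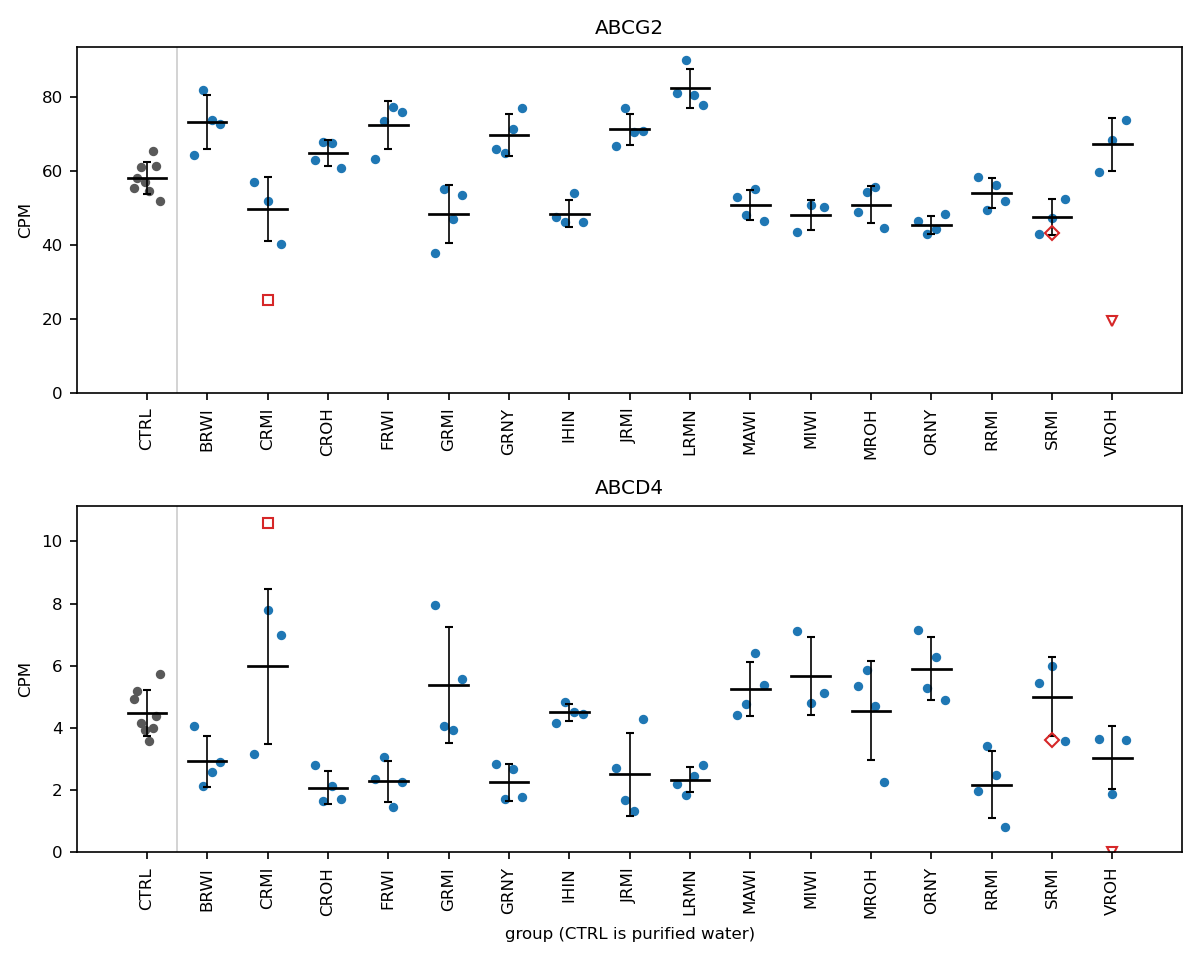
CPM of ABCG2 (top) and ABCD4 (bottom) in each library (points) by group, with the mean and SD of each group as bars, computed without the 3 libraries drawn in red (square CRMI 1, diamond SRMI 3, triangle VROH 2). The 4 LRMN libraries lie above all controls for ABCG2 and below all controls for ABCD4.

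Other members of subfamily D serve the peroxisome. ABCD3 carries branched fatty acids and bile acid precursors (chr1:94418455-94518666). It differed between sites (F 2.77, adjusted p = 0.0129, and 3.63 without the 3 libraries). Its control libraries ran from 3.95 to 7.87 CPM with a median of 5.47. At GRNY they stood at 5.99, 8.37, 7.002 and 15.3 CPM, and at SRMI at 5.72, 3.75, 26.3 and 3.71 CPM. Both groups overlap the controls, and 1 library stands above the rest in each. At GRNY the log2 change was 0.68 with all libraries (edgeR adjusted p = 0.294) and without the 3 (adjusted p = 0.0412). Leaving GRNY 4, the highest library, out of the fit of all libraries gave 0.33 (adjusted p = 0.700). ABCD2 had 1 count in all.

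Subfamily C holds the exporters of conjugates and drugs, and 7 of its 10 had counts and were tested. ABCC6, a liver protein needed for ATP release and mutated in pseudoxanthoma elasticum (chr16:16148928-16223522), was the 1 that passed between sites (F 5.01, adjusted p = 5.06e-05, and 6.51 without the 3 libraries). Its controls ran from 38.4 to 63.5 CPM with a median of 43.2. The lowest site mean was 35.6 ± 6.42 CPM (SD, n = 4) at JRMI, in libraries at 42.8, 27.4, 34.7 and 37.4 CPM. The highest was 60.9 ± 4.29 CPM (SD, n = 4) at MAWI, in libraries at 66.4, 62.0, 56.9 and 58.1 CPM. JRMI and MAWI do not overlap each other, while both overlap the controls. At MAWI the log2 change was 0.39 (edgeR adjusted p = 0.262), and 0.40 (adjusted p = 0.0480) without the 3 libraries, in a fit that called 4.71% of features there.

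ABCC6 has near-identical copies, so its counts are uncertain. The copy ABCC6P2, outside the rule, had 53118 counts against 21579 for ABCC6, and ABCC6P1 had 0. Without the 3 libraries the ratio of ABCC6 to ABCC6P2 ran from 0.216 to 0.599 over the libraries. How the authors' counting split reads between the copies is not stated in the labels.

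ABCC2, the canalicular exporter of bilirubin glucuronide and other conjugates, had a control range of 372 to 552 CPM with a median of 493. At CRMI the libraries stood at 567, 319, 273 and 306 CPM, so CRMI 1 was above every control and the other 3 below. Its log2 change there was −0.37 (SE 0.23, edgeR adjusted p = 0.404), and −0.66 (adjusted p = 0.00994) without the 3 libraries. At GRNY they stood at 663, 554, 563 and 618 CPM, all above the controls, with a change of 0.34 (SE 0.22, edgeR adjusted p = 0.473). Between sites ABCC2 had an F of 1.03 (adjusted p = 0.621), and of 3.35 (adjusted p = 0.00174) without the 3 libraries.

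ABCC3, the basolateral exporter of glucuronides, split CRMI in the same way. The CRMI libraries stood at 29.2, 11.03, 11.3 and 12.6 CPM against controls from 16.999 to 31.3 CPM with a median of 24.2. CRMI 1 lay inside the control range and the other 3 below it. The log2 change was −0.56 (edgeR adjusted p = 0.170), and −1.06 (adjusted p = 0.00531) without the 3 libraries. ABCC3 did not pass between sites in either fit (F 1.32 and 1.91).

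ABCC4, a basolateral exporter of cyclic nucleotides and bile salts, had controls from 26.4 to 34.7 CPM and LRMN libraries at 26.5, 24.3, 23.5 and 23.8 CPM. The log2 change at LRMN was −0.33 (edgeR adjusted p = 0.151), and −0.32 (adjusted p = 0.0464) without the 3 libraries. Its F was 1.10, and 1.33 without them. ABCC1, an exporter of glutathione conjugates, ran from 200 to 273 CPM in controls with a median of 236. Its site means ran from 196 ± 28.1 CPM (SD, n = 4) at BRWI to 287 ± 31.9 CPM (SD, n = 4) at CROH, and no single site was called. The F was 1.017 (adjusted p = 0.633), and 2.23 (adjusted p = 0.0337) without the 3 libraries. ABCC10 was higher at LRMN by 0.55, called only without the 3 libraries (edgeR adjusted p = 0.0478), and leaving LRMN 2 out of the fit of all libraries gave 0.28 (adjusted p = 0.701). At SRMI the ABCC10 change was 0.68 with all libraries (edgeR adjusted p = 0.151) and 0.38 without the 3 (adjusted p = 0.456). ABCC11 was called nowhere. Of the potassium channel regulators ABCC9 was at 0 and ABCC8 had 1 count.

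Of the canalicular pumps of subfamily B only ABCB1, P-glycoprotein (chr7:87503633-87713323), had the counts to be tested. Its controls ran from 162 to 234 CPM with a median of 186. The lowest site mean was 149 ± 26.0 CPM (SD, n = 4) at GRNY, in libraries at 157, 166, 161 and 110 CPM, of which 3 lay below every control. The highest was 247 ± 40.7 CPM (SD, n = 4) at GRMI, in libraries at 225, 259, 204 and 297 CPM. GRNY and GRMI, picked as the extremes, do not overlap, and each overlaps the controls. CRMI 1 stood at 59.7 CPM against a mean of 241 CPM in the rest of its site, and SRMI 3 at 68.4 against 204 CPM. The F between sites was 1.52 (adjusted p = 0.261), and 5.61 (adjusted p = 6.58e-06) without the 3 libraries. At GRNY the log2 change was −0.36 (edgeR adjusted p = 0.447), and −0.35 (adjusted p = 0.0366) without them. Leaving GRNY 4 out of the fit of all libraries gave −0.24 (edgeR adjusted p = 0.711).

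ABCB4, which moves phosphatidylcholine into bile, had 298 counts over all libraries and averaged 0.560 CPM in controls. ABCB11, the bile salt export pump, had 2 counts, and ABCB5 had 3. These 3 were not tested.

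**Figure D4:**
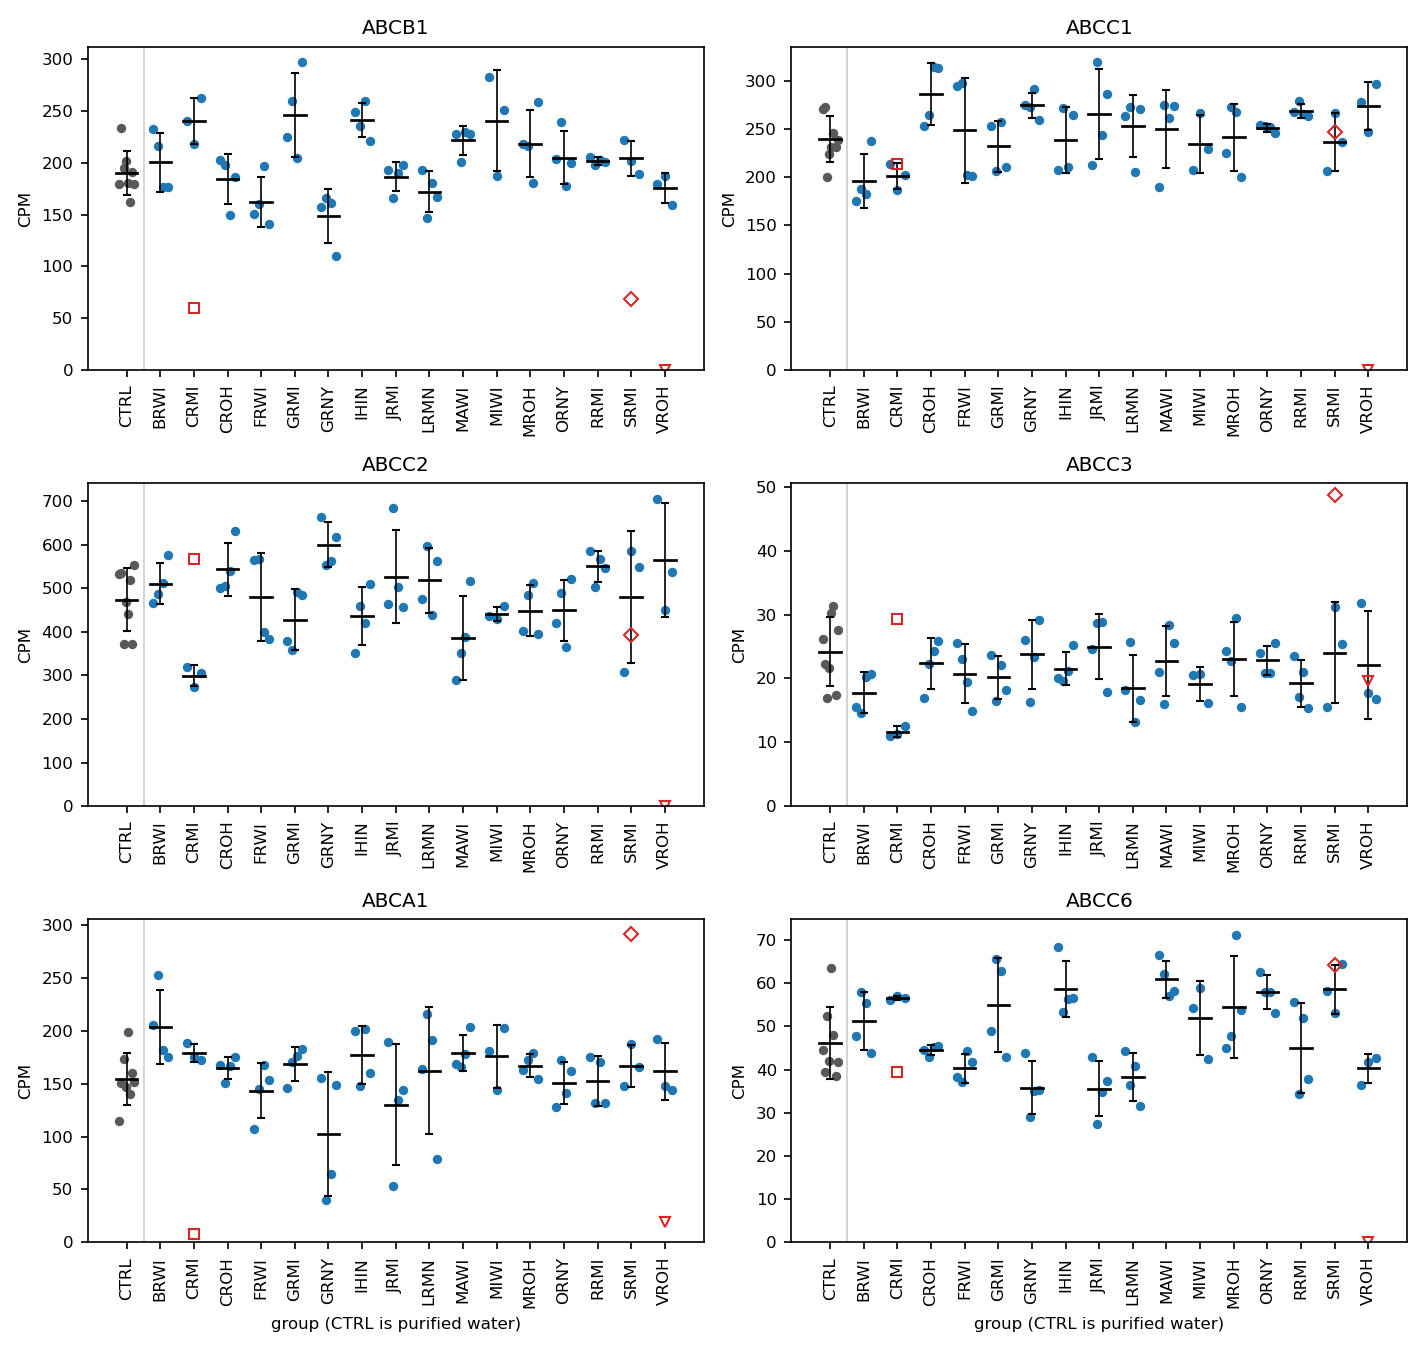
CPM of ABCB1, ABCC1, ABCC2, ABCC3, ABCA1 and ABCC6 in each library (points) by group, with the mean and SD of each group as bars, computed without the 3 libraries drawn in red (square CRMI 1, diamond SRMI 3, triangle VROH 2). For ABCB1 the libraries CRMI 1 and SRMI 3, at 59.7 and 68.4 CPM, lie far below the rest of their sites.

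Other members of subfamily B serve mitochondria and lysosomes. ABCB10, a mitochondrial transporter that supports haem synthesis (chr1:229516582-229558695), passed between sites (F 2.74, adjusted p = 0.0137, and 3.54 without the 3 libraries). Its control libraries ran from 15.1 to 20.8 CPM with a median of 19.3. At LRMN they stood at 15.5, 16.2, 17.4 and 15.2 CPM and at SRMI at 26.7, 23.5, 34.0 and 18.4 CPM. These 2 sites, picked as the lowest and highest means, do not overlap, while each overlaps the controls. Without the 3 libraries the SRMI mean was 22.9 ± 4.16 CPM (SD, n = 3), and the highest was 23.8 ± 2.04 CPM (SD, n = 4) at IHIN. All 4 IHIN libraries, from 21.0 to 25.45 CPM, lay above every control. The log2 change there was 0.33 in that fit and was not called (edgeR adjusted p = 0.0793). With no filter on low counts the adjusted p of ABCB10 between sites was 0.0666. ABCB6 and ABCB8 did not pass in either fit, and ABCB9 had 120 counts and was not tested.

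In subfamily A, 11 of 12 genes had counts and 6 were tested. ABCA2, a lipid transporter of late endosomes and lysosomes (chr9:137007227-137028922), was the 1 that passed (F 3.37, adjusted p = 0.00283, and 4.17 without the 3 libraries). Its controls ran from 2.32 to 6.31 CPM with a median of 4.06. The CRMI libraries stood at 3.35, 1.58, 1.16 and 0.840 CPM, so that CRMI 1 lay inside the control range and the other 3 below it. The log2 change was −1.23 (SE 0.42, edgeR adjusted p = 0.0808), and −1.93 (SE 0.53, adjusted p = 0.0164) without the 3 libraries, a fit that called 8.01% of features at CRMI. The highest site mean was 7.72 ± 4.55 CPM (SD, n = 4) at GRNY, in libraries at 9.15, 3.42, 4.84 and 13.5 CPM, which overlap the controls.

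ABCA1, which loads cholesterol onto apolipoprotein A-I, had the lowest F of the family, 0.79 (adjusted p = 0.825), and 1.57 (adjusted p = 0.177) without the 3 libraries. Controls ran from 115 to 199 CPM with a median of 151. At GRNY the libraries stood at 156, 39.7, 64.9 and 149 CPM, 2 of them far below the controls and 2 inside their range. In CRMI 1 it was at 7.51 CPM, against 179 CPM in the rest of that site. ABCA5 and ABCA7 passed only without the 3 libraries (F 3.44 and 2.68, adjusted p = 0.00135 and 0.0101), and ABCA7 was then called higher at LRMN by 0.38. Leaving LRMN 2 out of the fit of all libraries gave 0.24 for ABCA7 there (edgeR adjusted p = 0.644). ABCA5 shares 535 bases with ABCA10 on the same strand, so their counts are uncertain. ABCA4 and ABCA6 did not pass in either fit. ABCA10, with 145 counts, ABCA8, with 27, ABCA9, with 24, ABCA12, with 13, and ABCA13, with 4, were not tested.

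ABCG5 and ABCG8 form a heterodimer that secretes sterols into bile, and the genes overlap by 6923 bases on opposite strands, so their counts are uncertain. ABCG5 (chr2:43812472-43838865) passed between sites (F 2.85, adjusted p = 0.0105, and 2.51 without the 3 libraries). Its controls ran from 22.6 to 33.0 CPM with a median of 28.3. At CROH, the lowest mean, the libraries stood at 19.1, 20.5, 23.6 and 18.3 CPM, and at SRMI, the highest, at 30.8, 33.5, 53.7 and 35.2 CPM. These 2 sites, picked as the extremes, do not overlap, and 3 of 4 CROH libraries lay below every control. ABCG8 did not pass (F 1.91, adjusted p = 0.107, and 1.39 without the 3 libraries). Its controls averaged 1.15 ± 0.6253 CPM (SD, n = 8) and its highest mean was 2.54 ± 0.721 CPM (SD, n = 4) at CRMI, or 2.35 ± 0.761 CPM (SD, n = 3) without CRMI 1. The changes at the 2 extreme sites of ABCG5 were −0.44 and 0.47 for ABCG5 and −0.26 and 0.80 for ABCG8. Without the 3 libraries the SRMI changes were 0.27 for ABCG5 and 0.16 for ABCG8. ABCG1, which passes cholesterol to lipoprotein, had 10 counts in all, and ABCG4 had 4.

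In subfamilies E and F, ABCF1, a factor of translation initiation (chr6:30571376-30597179), passed between sites (F 3.28, adjusted p = 0.00354, and 5.26 without the 3 libraries). Its controls ran from 107 to 132 CPM with a median of 115. The CRMI libraries stood at 174, 153, 154 and 171 CPM, all above every control, and those of CROH at 104, 106, 78.1 and 101 CPM, all below. The log2 change at CRMI was 0.49 (SE 0.15, edgeR adjusted p = 0.0565), and 0.46 (adjusted p = 0.0201) without the 3 libraries. At CROH it was −0.25 (edgeR adjusted p = 0.455). ABCE1, the factor that splits ribosomes for reuse, did not pass (F 1.81, adjusted p = 0.137) and did so without the 3 libraries (F 3.00, adjusted p = 0.00432). Its means then ran from 3.75 ± 1.55 CPM (SD, n = 4) at GRNY to 8.33 ± 2.30 CPM (SD, n = 4) at MAWI. ABCF3 did not pass in either fit. ABCA3, ABCC5, ABCC9, ABCC12, ABCC13 and ABCF2 were at 0 in every library. Over all 71 libraries counting error alone allows up to 0.00661 CPM for each. Of the table's 31012 entries 12459 had counts. Whether the assay held probes for these ABC genes is not stated, so their 0 is not read as absence of the RNA.

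Among the libraries that stood apart, CRMI 1 had 452 of 3361 features more than 3 log2 units below the rest of its site, and SRMI 3 had 82. In CRMI 1, besides ABCA1 and ABCB1, ABCE1 stood at 0.671 CPM against 8.18 in the rest of the site and ABCA5 at 10.9 against 45.4. In the same library ABCC2, ABCC3, ABCA2 and ABCC10 were among the genes at higher CPM than in the rest. In SRMI 3 ABCD3 stood at 26.3 CPM against 4.39 and ABCF1 at 58.2 against 142. In VROH 2 no ABC gene had more than 3 counts, and a count of 0 there allows up to 58.7 CPM.

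**Figure D5:**
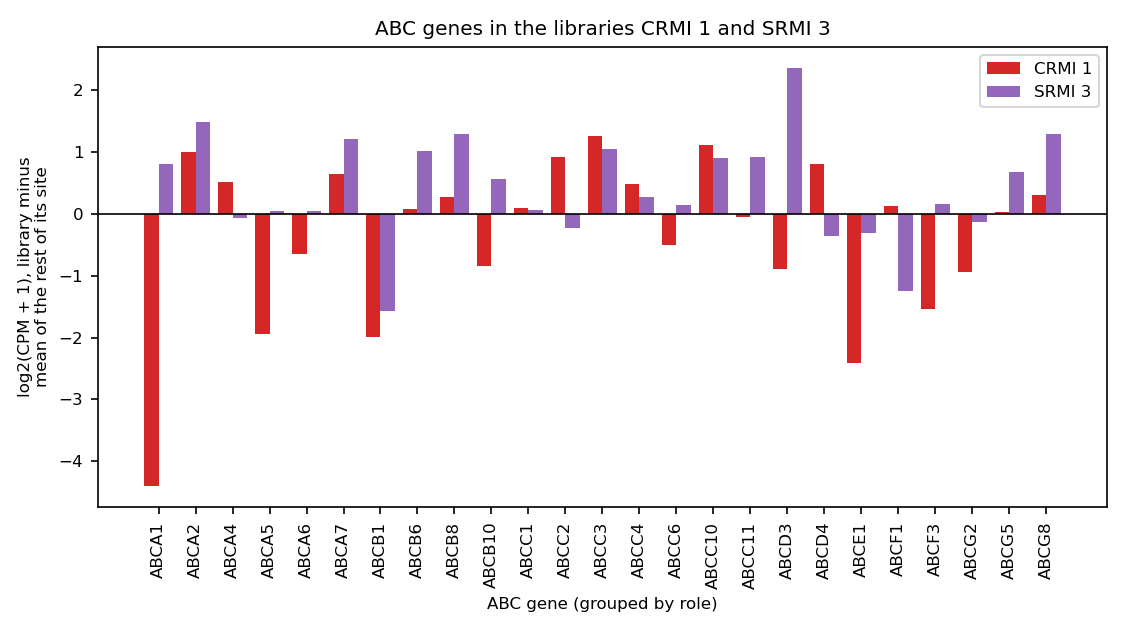
Difference of 25 of the 27 tested ABC genes in CRMI 1 (red) and SRMI 3 (purple) from the mean of the other libraries of the same site, as log2(CPM + 1). In CRMI 1 the bars run from −4.40 for ABCA1 to 1.26 for ABCC3, and in SRMI 3 from −1.56 for ABCB1 to 2.36 for ABCD3.

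Genes that control or work with the ABC genes were read in the same F test, against the same 29.8% of features, or 49.8% without the 3 libraries. Of 21 tested nuclear receptors and factors that control ABC genes 9 passed, or 42.9% (15 without the 3 libraries, or 71.4%), led by NR5A2, a regulator of bile acid genes, at F 13.3, then CEBPA and PPARA. NR5A2 was higher at CROH, LRMN and RRMI by 0.89, 0.89 and 0.87 on the log2 scale (edgeR adjusted p between 0.000622 and 0.00230). These are the 3 sites where ABCD4 was called lower against the same controls. Without the 3 libraries NR5A2 was also called higher at FRWI, GRNY and JRMI (0.60, 0.69 and 0.72) and lower at MAWI (−0.57). In that fit ABCD4 was called lower at FRWI and GRNY and was not called at JRMI or MAWI. LYZ was called there in the same direction as NR5A2 at all of these sites, so the pattern is not particular to NR5A2. The part of NR5A2 in the ABCD4 result was not tested. The bile acid receptor NR1H4 was lower at LRMN by −0.52 and NR1I3, the constitutive androstane receptor, lower at RRMI by −0.90. CEBPA was lower at LRMN by −0.61 and higher at SRMI by 0.70. Without the 3 libraries the SRMI change of CEBPA was 0.47 (edgeR adjusted p = 0.108) and its call there was lost, while the other calls named here were kept. Of 19 drug metabolism enzymes 8 passed, or 42.1% (11 without the 3, or 57.9%), led by CYP3A7, CYP3A5 and POR. CYP3A7 was higher at RRMI by 1.09, and CYP3A5 at RRMI by 0.92 and at LRMN by 0.68.

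Among partners of single subfamilies, 3 of 19 genes of sterol efflux passed, or 15.8% (10 without the 3, or 52.6%), led by MYLIP and NPC1. Of 27 peroxisomal partners 9 passed, or 33.3% (15 without the 3, or 55.6%), led by ACOX3, PECR and ACSL3, enzymes of fatty acid oxidation and activation. Of 17 partners in ribosome recycling and translation control 6 passed, or 35.3% (11 without the 3, or 64.7%), led by EIF3J, NEMF and HBS1L. By edgeR 0 genes of these 3 lists were called at a single site, against 0.883% of all feature-site pairs. Of their 1008 gene-site pairs 77 had an unadjusted p under 0.05, a count without a share over all features. In the fit without the 3 libraries 39 of the 1008 pairs were called, or 3.87%, against 4.09% of all feature-site pairs. Of 22 iron-sulfur and haem genes 2 passed, or 9.09% (6 without the 3, or 27.3%), among them FDX1, a mitochondrial ferredoxin (F 3.42). By edgeR 0 genes of these 6 lists were called at the mean of sites, where 3 of 125 had an unadjusted p under 0.05. In the fit without the 3 it was 1, CYP3A7, at 0.40 (adjusted p = 0.0164).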

How the data were processed

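The values are estimated counts (expected counts) per gene for 71 libraries, which the authors made with Salmon against GRCh38 per the submitters' processing notes. Neither the version of Salmon, nor the probes' positions, nor a scaling step is stated there. The deposit names these values normalized data, so whether they were scaled beforehand is not known. For each library the value of 1 read that gave the most whole reads was found, from 0.9925 to 1.004. The share of values under 20 within 0.02 of a whole read then had a median of 93.3% over libraries (lowest 91.2%). Values were therefore rounded and used as counts. The table is held in part, to symbols before RAI14 in alphabetical order, and later symbols were not analysed here. Column names gave each library its site; MIWI and GRMI libraries carry the columns' numbers, which differ from those in the labels.

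Counts were fitted with edgeR 4.0.16 in R 4.3.3 (quasi-likelihood test after TMM scaling), using filterByExpr with a minimum count of 10 and a mean for each of 17 groups (54 residual degrees of freedom, common biological coefficient of variation 0.257). Each site and the mean of sites were compared with the controls, and the 16 sites with each other by an F test. Benjamini-Hochberg adjustment ran over all features of a comparison, and a feature was called at an adjusted p below 0.05. CPM are counts over TMM-scaled library totals, and errors are SD over libraries or SE from the F value. A count of 0 allows up to 3 counts, a limit for counting error only, because these reads carry no molecular identifiers. Alternatives were RLE scaling, DESeq2 1.42.0, no filter, a minimum count of 30, the replicate number as a block, a site with the controls alone, and fits without 1 library or without VROH 2, CRMI 1 and SRMI 3.

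The genes described are those called in any comparison plus 16 fixed by their role; other genes are counted. A few genes of these sets are not reported here by name and are left out of the figures, but stay in the counts. The members, the lists and these rules were chosen with earlier results of these data known. The fit was tested on simulated data. GENCODE release 29 (GRCh38) gave the gene positions.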

Additional observations from a re-analysis of the deposited data

Results flagged for a closer look

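The change against the controls differed between sites for 8 ABC genes by the F test, with adjusted p of 6.31e-09 for ABCG2, 8.11e-08 for ABCD4, 5.06e-05 for ABCC6, 0.00283 for ABCA2, 0.00354 for ABCF1, 0.0105 for ABCG5, 0.0129 for ABCD3 and 0.0137 for ABCB10.

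Single libraries of these genes lay far from the rest of their group by Dixon's test. CTRL 8 was low for ABCB10 (15.1 CPM). CRMI 1 was low for ABCB10 (10.6 CPM) and for ABCC6 (39.4 CPM). CROH 3 was high for ABCD3 (13.3 CPM). For ABCG5, FRWI 4 was low (16.9 CPM) and IHIN 3 high (35.7 CPM). VROH 2 was low for ABCB10, ABCC6, ABCD3 and ABCG5, all at 0 CPM, and for ABCF1 and ABCG2, each at 19.6 CPM; 0 counts in that library allow up to 58.7 CPM. These are 12 of 128 groups checked. Over all 27 tested ABC genes 45 of 432 groups held such a library, 23 of them in VROH 2, CRMI 1 or SRMI 3. Chance gives about 1 in 20.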

How the results depend on the processing

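The number of ABC genes called between sites was 8 under RLE scaling, a minimum count of 30, DESeq2 and the replicate block, 7 with no filter and 8 to 12 when single libraries were left out, with none of the 8 lost in the latter. It was 14 without VROH 2, CRMI 1 and SRMI 3. As a share of ABC genes this was 51.9%, against 49.8% of all features. Under RLE scaling the shares were 29.6% and 31.6%, by DESeq2 29.6% and 35.5%, and with the replicate block 29.6% and 26.4%. At the minimum count of 30 they were 36.4% of 22 ABC genes and 35.8%, and with no filter 17.5% of 40 and 13.3%. The number of gene-site pairs called was 6 under RLE scaling, DESeq2 and the minimum count of 30, and 2 with no filter, where more features were tested. It was 22 without the 3 libraries. With each site and the controls alone it was 13, without a share of all features, so that count is not set against the others. Called pairs were 1.39% of ABC pairs against 1.07% of all pairs under RLE scaling, and 1.39% against 1.41% by DESeq2. They were 1.7% against 1.33% at the minimum count of 30, 0.312% against 0.257% with no filter, and 5.09% against 4.09% without the 3. Leaving out single libraries gave 3 to 8 called pairs, with 3 without CTRL 7 or CTRL 8 and 8 without CRMI 1. With the replicate number as a block 1 pair was called, ABCG2 at LRMN, or 0.231% against 0.267% of all pairs. The labels name no shared batch behind the numbers. Of same-numbered pairs of libraries from different groups, 191 of 528 correlated above 0.1 (median 0.014). Of different-numbered pairs, 678 of 1836 did (median 0.0062). Whether a batch lies behind the numbers was not tested. No ABC gene was called at the mean of sites under any alternative run, and no called value changed sign. The causes of these differences were not tested. The 13 ABC genes with counts that the filter removed were not tested at this depth. The lists of other genes were read without the 3 libraries as an alternative chosen after seeing the data.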
